A study of Mus musculus with 28 samples.

Results

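Monocyte-derived cells that lacked Trem1 were compared with WT cells after both had entered an inflamed small intestine. The comparison holds 12 of the 28 samples of the study, chosen by their labels: all 7 samples of Trem1-/- donor cells and all 5 samples of WT donor cells taken from surgically manipulated intestine. Donors were C57BL/6 Trem1-/- or C57BL/6 WT mice. Recipients of both were C57BL/6 CCR2-/- mice, whose own monocytes lack the receptor used to leave the bone marrow. Surgery preceded the transfer by 1 day, and 100 donor cells per sample were sorted 1 day after the transfer. Set beside these samples are 5 of Trem1-/- and 5 of WT donor cells from CCR2-/- recipients without surgery (control intestine), and bone marrow monocytes of 3 Trem1-/- and 3 WT mice without surgery. Samples carry mouse numbers, but whether 1 donor served several recipients is not given in the sources used here, so the p-values measure the spread between these samples.

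TREM-1 is an activating receptor of monocytes and neutrophils. It has no signalling tail of its own, pairs with the adaptor DAP12, and is known to amplify responses that start at Toll-like and NOD-like receptors and run through the NF-kappaB transcription factors. Monocytes that enter an injured gut are known to release cytokines and chemokines early, and to take on features of macrophages that end inflammation and aid repair later. The study asked, by its title, how far the inflamed bowel shapes incoming monocytes through Trem1.

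Transcripts were counted as barcoded probes on a NanoString nCounter panel. Of 72 named probes, 55 targets had values in all 28 samples and were tested, and all 55 lay above each sample's background limit (the mean of the negative-control probes plus 2 SD) in all 12 inflamed samples. Levels below are normalised counts, scaled so that Actb, Gapdh and Rpl19, taken as housekeeping genes, have an equal geometric mean in every sample. Differences are log2 fold changes, Trem1-/- minus WT, with the standard error (SE) of edgeR's quasi-likelihood fit over the 22 intestinal samples. A target passes where the p-value, adjusted over 55 targets by the Benjamini-Hochberg method, lies below 0.05. In 100 sorted cells, fewer cells making a transcript and less transcript per cell cannot be told apart.

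The genotype could not be checked at the targeted gene, because Trem1 has values in WT intestinal samples alone, where the inflamed mice 1 to 5 had 6615, 2530.0, 3323, 6688 and 6430.3 normalised counts. Total gene counts ran from 1351956 to 1583736 in Trem1-/- samples and from 921941 to 1567612 in WT samples. The synthetic positive-control probes, which carry no mouse RNA, had geometric means of 766 to 1034 counts in Trem1-/- samples and of 247 to 555 in WT samples, without overlap, so assay efficiency and genotype cannot be told apart in these probes. Gapdh stood at 0.932 to 1.09 times Actb in Trem1-/- samples and at 0.712 to 0.778 times in WT samples, also without overlap. The deposited values of some samples were whole counts times a multiplier, which housekeeping scaling cancels: about 4/3 in Trem1-/- mice 5 to 7 and in WT mice 3 and 4, and 2 in WT mouse 5. WT mice 3 and 4 stood apart from WT mice 1 and 2 in 28 of 55 targets, though 2 samples against 2 often part by chance. Trem1-/- mice 5 to 7 stood apart from Trem1-/- mice 1 to 4 in 19, a split that chance gives less often. WT mice 3 and 4 also had the lowest positive-control geometric means (267 and 247 counts) and total gene counts (940324 and 921941) of all inflamed samples. Whether assay or mouse set them apart was not tested, and the results without them are given below. WT mouse 2 was the lowest WT sample in 26 targets and the highest in 11. Of 10 monocyte and macrophage markers, 7 were measured and all 7 lay above background, with summed levels of 181519 to 224036 in Trem1-/- samples and 232900.1 to 297341 in WT samples. The sums are weighted to abundant members, above all Cd14 (means 90064 and 122428). The members did not move together. Spi1 (-1.39), Csf1r (-1.33), Cx3cr1 (-0.65) and Cd14 (-0.44) had log2 fold changes below 0, and Ccr2 (0.68), Fcgr1 (0.22) and Adgre1 (0.13) above 0. Of 5 dendritic cell markers, 3 were measured, while Flt3 and Zbtb46 had no values. The measured ones, Itgax, Ccr7 and Irf4, summed to 2401 to 4776 in Trem1-/- samples and 3786 to 7987 in WT samples. No marker was at 0, and their part in the results was not tested. No listed marker of neutrophils, T cells, B cells, epithelium, fibroblasts or mast cells was measured, so such cells could not be looked for.

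In Trem1-/- cells, 5 targets were higher and 13 lower than in WT cells, out of 55. That is 32.7% of targets called, 9.09% higher and 23.6% lower, and the median log2 fold change over all 55 was -0.28. The higher ones were the mannose receptor gene Mrc1, the anti-inflammatory cytokine gene Il10 and the chemokine genes Ccl7, Cxcl1 and Ccl2. Of the lower ones, 12 are named here: the costimulatory ligand Cd80, the receptors Nod2, Tlr4 and Tlr2, the signalling genes Traf6, Nfkb1 and Nfkb2, the transcription factors Spi1 and Irf5, the growth factor receptor Csf1r, the adhesion gene Itgb7, and the monocyte surface gene Ly6c1. The values of the 7 Trem1-/- and 5 WT samples did not overlap in 11 of 55 targets (20%), 10 of which passed. The exception was Il1b. With two-sided exact permutation tests of the mean log2 levels, whose smallest possible p for 7 against 5 samples is 0.00253, 16 of 55 targets passed after adjustment (29.1%). These held 13 of the 18 calls, and Il1b, Cd14 and Cd44 in addition. The 5 calls that missed were Traf6 (exact permutation adjusted p = 0.0572), Csf1r (0.0585), Ly6c1 (0.0625), Tlr2 (0.0631) and Tlr4 (0.0868), in each of which at least 1 WT mouse lay among the Trem1-/- samples.

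**Figure D1:**
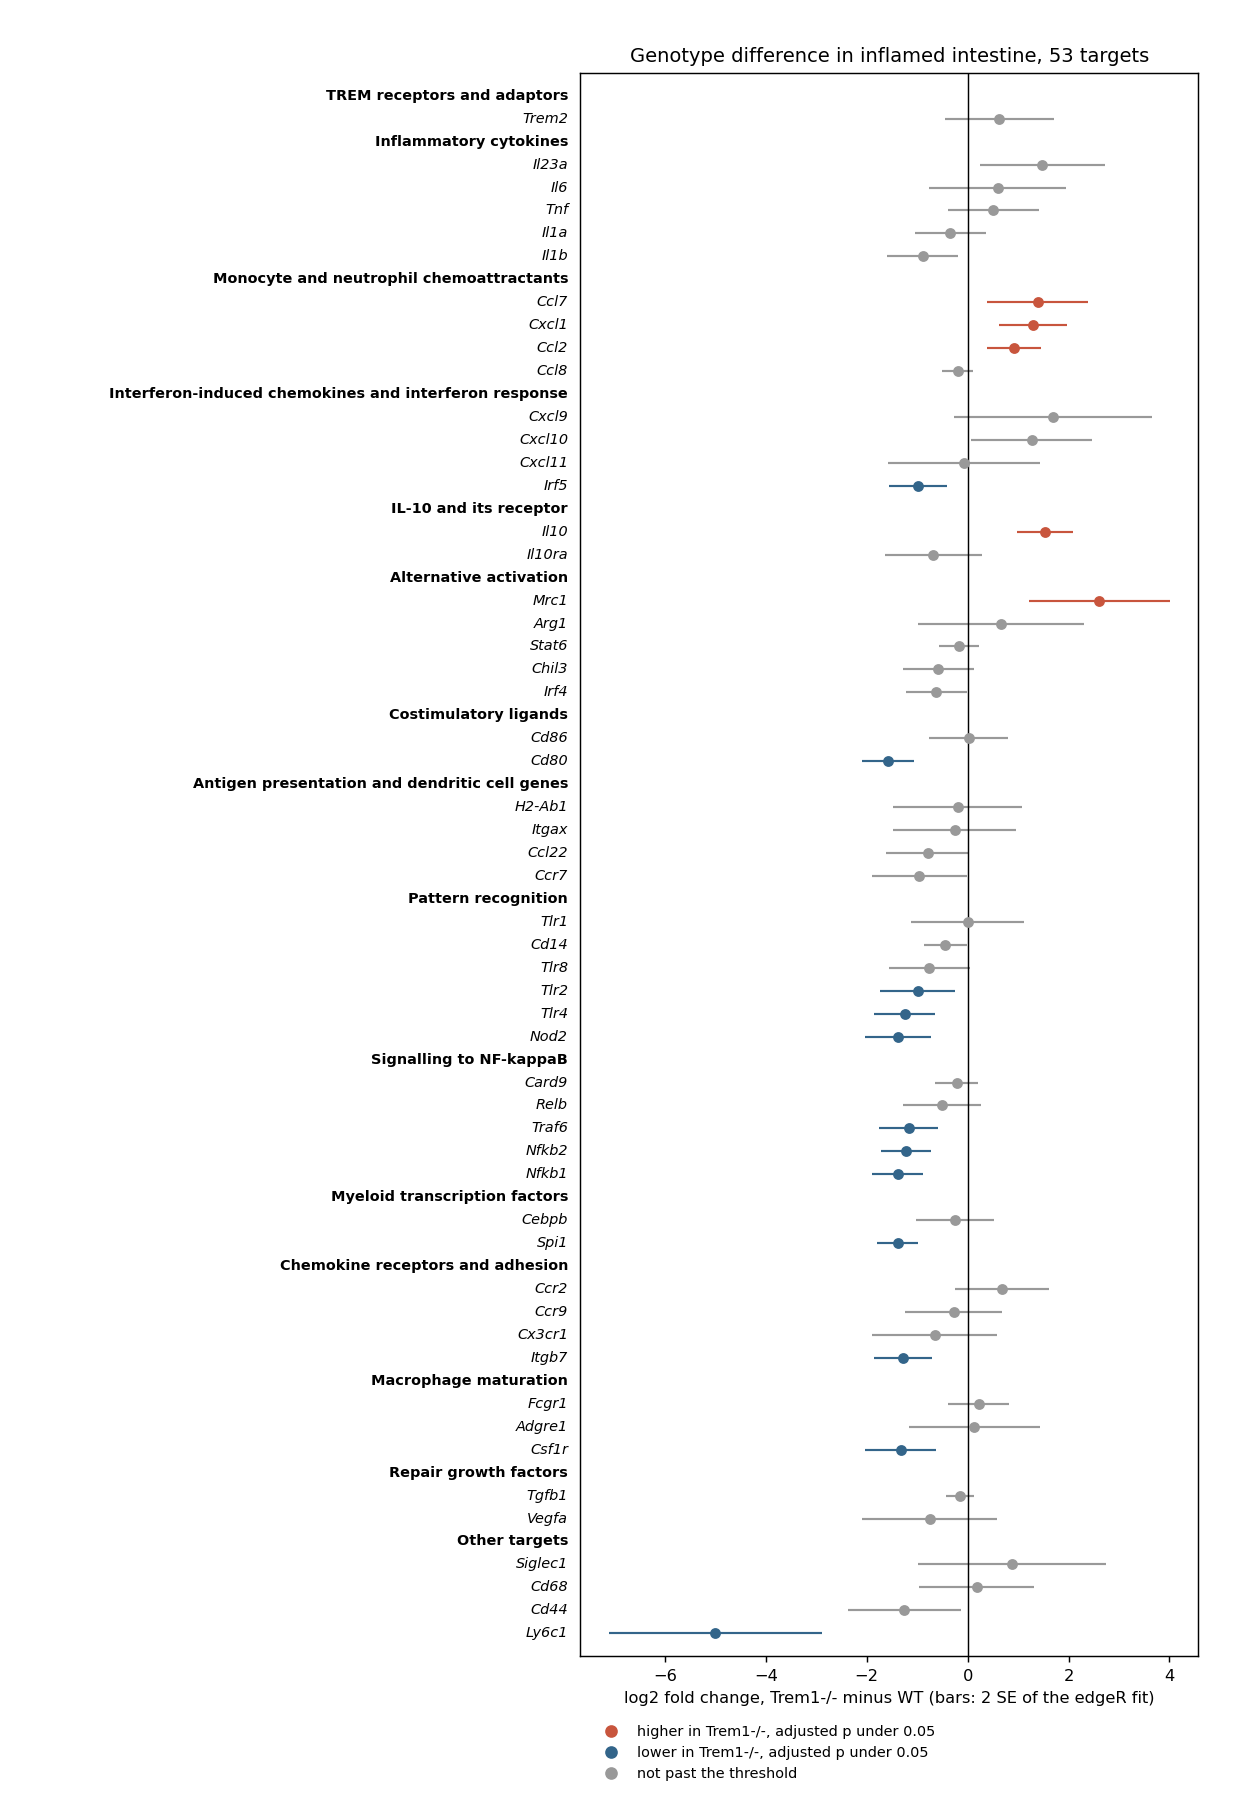
Log2 fold change (horizontal axis, Trem1-/- minus WT, inflamed intestine) of 53 targets, grouped by role, with bars of 2 SE from the edgeR fit; each target is drawn once, under the first list that holds it. The 3 chemokine genes, Il10 and Mrc1 lie right of 0, and the pattern recognition and NF-kappaB genes that passed lie left of it.

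Among secreted factors, the chemokine genes Ccl2, Ccl7 and Cxcl1 were higher in cells without Trem1, while Ccl8, Ccl22, Cxcl9, Cxcl10 and Cxcl11 and all genes of the inflammatory cytokine list did not pass. Of 4 measured attractants of monocytes and neutrophils, 3 were higher (9.09% over all 55 targets) and 1 did not pass. Their median log2 fold change was 1.11. Ccl2, the main ligand of CCR2, had a lowest of 40313, a median of 54275 and a highest of 61548 normalised counts in Trem1-/- samples, and 22813, 21715, 31378, 33187 and 26482 in WT mice 1 to 5. Every Trem1-/- sample lay above every WT sample (log2 fold change 0.92, SE 0.27, adjusted p = 0.00945). Ccl7, which lies next to Ccl2 on chromosome 11 and encodes another attractant of monocytes, had a lowest of 42205, a median of 54201 and a highest of 63009.5 normalised counts in Trem1-/- samples, and 23582, 6254, 30983, 30489.8 and 13002 in WT mice 1 to 5. Here too the groups did not overlap (log2 fold change 1.39, SE 0.50, adjusted p = 0.0344), though the call ended without WT mouse 1 (1.44), 2 (1.16) or 5 (1.26) and without Trem1-/- mouse 5 (1.36) or 6 (1.36). Ccl8, which lies further along the same cluster beyond Ccl11 and Ccl12, gave -0.20 on the log2 scale (adjusted p = 0.335) at 101 to 125 normalised counts in Trem1-/- samples and 111 to 149.7 in WT samples.

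Cxcl1, which attracts neutrophils, had a lowest of 5197, a median of 8318 and a highest of 15081 normalised counts in Trem1-/- samples, and 2862, 2139, 6479, 4436 and 2858 in WT mice 1 to 5. Of the 7 Trem1-/- samples, 6 lay above every WT sample, and the lowest, mouse 5, lay below WT mouse 3 (log2 fold change 1.30, SE 0.34, adjusted p = 0.0046). Scaling by the positive controls in place of the housekeeping genes lowered the median log2 fold change of all targets by 0.93 and left none of the 3 chemokines past the threshold: the log2 fold changes became 0.07 for Ccl2, 0.50 for Ccl7 and 0.43 for Cxcl1 (edgeR adjusted p = 0.88, 0.445 and 0.45). None of the 3 passed in the authors' normalised table either, where they gave 0.58 for Ccl2, 1.26 for Ccl7 and 1.00 for Cxcl1 (limma on log2 values, adjusted p = 0.359, 0.142 and 0.116).

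Inflammatory cytokines did not pass in edgeR: 0 of 5, against 32.7% of all 55 targets, with a median log2 fold change of 0.51. At unadjusted p below 0.05 there were 2, Il1b and Il23a, and both DESeq2 and limma called 1 of 5, Il23a, higher. DESeq2's test used its own size factors in place of the housekeeping scaling. With it the median log2 fold change of all 55 targets was 0.14, against -0.28 in edgeR. Il1b, the secreted form of interleukin 1, had a lowest of 42609, a median of 56818 and a highest of 79376 normalised counts in Trem1-/- samples, and 112818, 103149, 87791, 115803 and 125145 in WT mice 1 to 5. Its groups did not overlap, at a log2 difference of -0.89 (edgeR SE 0.35, adjusted p = 0.0539). The exact permutation p of 0.00253 (0.0126 after adjustment) follows from the lack of overlap and is no second line of evidence. Without Trem1-/- mouse 7 Il1b passed in edgeR, at -0.96. Il23a, the p19 chain of interleukin 23, had a lowest of 2379, a median of 6724 and a highest of 11975 normalised counts in Trem1-/- samples, and 619.7, 1360.0, 2263, 7485 and 179 in WT mice 1 to 5. WT mouse 4 lay within the Trem1-/- range and the other WT mice below its lowest value (log2 fold change 1.48, SE 0.62, adjusted p = 0.0713), and without WT mouse 4 the log2 fold change was 2.59 (adjusted p = 0.00132). Tnf, at 54772 to 205162 normalised counts in Trem1-/- samples and 63596 to 131677 in WT samples, gave 0.51 (adjusted p = 0.405). Il6 gave 0.60 (adjusted p = 0.494) and Il1a -0.34 (adjusted p = 0.463).

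Il10 encodes the anti-inflammatory cytokine that macrophages use to restrain one another, and it was the higher target with the smallest adjusted p. The probe covers positions 986 to 1085 of NM_010548.1, a transcript of chromosome 1. Trem1-/- samples had a lowest of 23278, a median of 45437 and a highest of 52988 normalised counts. WT mice 1 to 5 had 14545, 20171, 16734, 11179 and 12087. The lowest Trem1-/- value, of mouse 5, lay above the highest WT value, of mouse 2, and the fold was 2.90 (log2 fold change 1.53, SE 0.28, adjusted p = 0.000228). Within both multiplier classes the difference was much alike, at 1.46 (adjusted p = 0.0194) for unmultiplied samples and 1.43 (adjusted p = 0.0152) for those multiplied by about 4/3. With positive-control scaling it was 0.76 (adjusted p = 0.0752). Il10ra, the ligand-binding chain of the receptor, gave -0.68 (adjusted p = 0.305), with 562 to 1742 normalised counts in Trem1-/- samples and 397 to 2597 in WT samples.

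Among 5 measured genes of alternative activation, Mrc1 was higher (9.09% over all 55 targets) and 4 did not pass, with a median of -0.17. Mrc1 encodes the mannose receptor of tissue macrophages (probe at positions 3993 to 4092 of NM_008625.1, chromosome 2). Trem1-/- samples had a lowest of 874, a median of 1270.1 and a highest of 4788 normalised counts, and WT mice 1 to 5 had 89.6, 84.6, 687, 738 and 70.1. No values overlapped, although WT mice 3 and 4 stood close to the lowest Trem1-/- sample and the other 3 WT mice far below it (log2 fold change 2.61, SE 0.70, adjusted p = 0.00493). Before scaling, WT mice 1, 2 and 5 had 87, 61 and 74 counts of Mrc1, against background limits of 38.6, 16.8 and 40.1, so these values were low. The difference passed within both multiplier classes, at 3.66 and 2.2, and stood at 1.73 (adjusted p = 0.0792) with positive-control scaling. Arg1, which breaks down arginine, had a lowest of 124325, a median of 134062 and a highest of 153559 normalised counts in Trem1-/- samples, and 16433, 7106, 250857, 152769.9 and 5775 in WT mice 1 to 5. The Trem1-/- samples lay close together, WT mice 1, 2 and 5 lay below all of them, WT mouse 4 within their range and WT mouse 3 above it (log2 fold change 0.66, SE 0.82, adjusted p = 0.524). By limma's test Arg1 was called higher. Chil3, a secreted chitinase-like protein, gave -0.58 (adjusted p = 0.213), Stat6, which carries interleukin 4 signals, -0.17 (adjusted p = 0.513), and Irf4, a transcription factor of alternative activation, -0.62 (adjusted p = 0.111). Irf4 passed without Trem1-/- mouse 1, at -0.80 (adjusted p = 0.043).

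**Figure D2:**
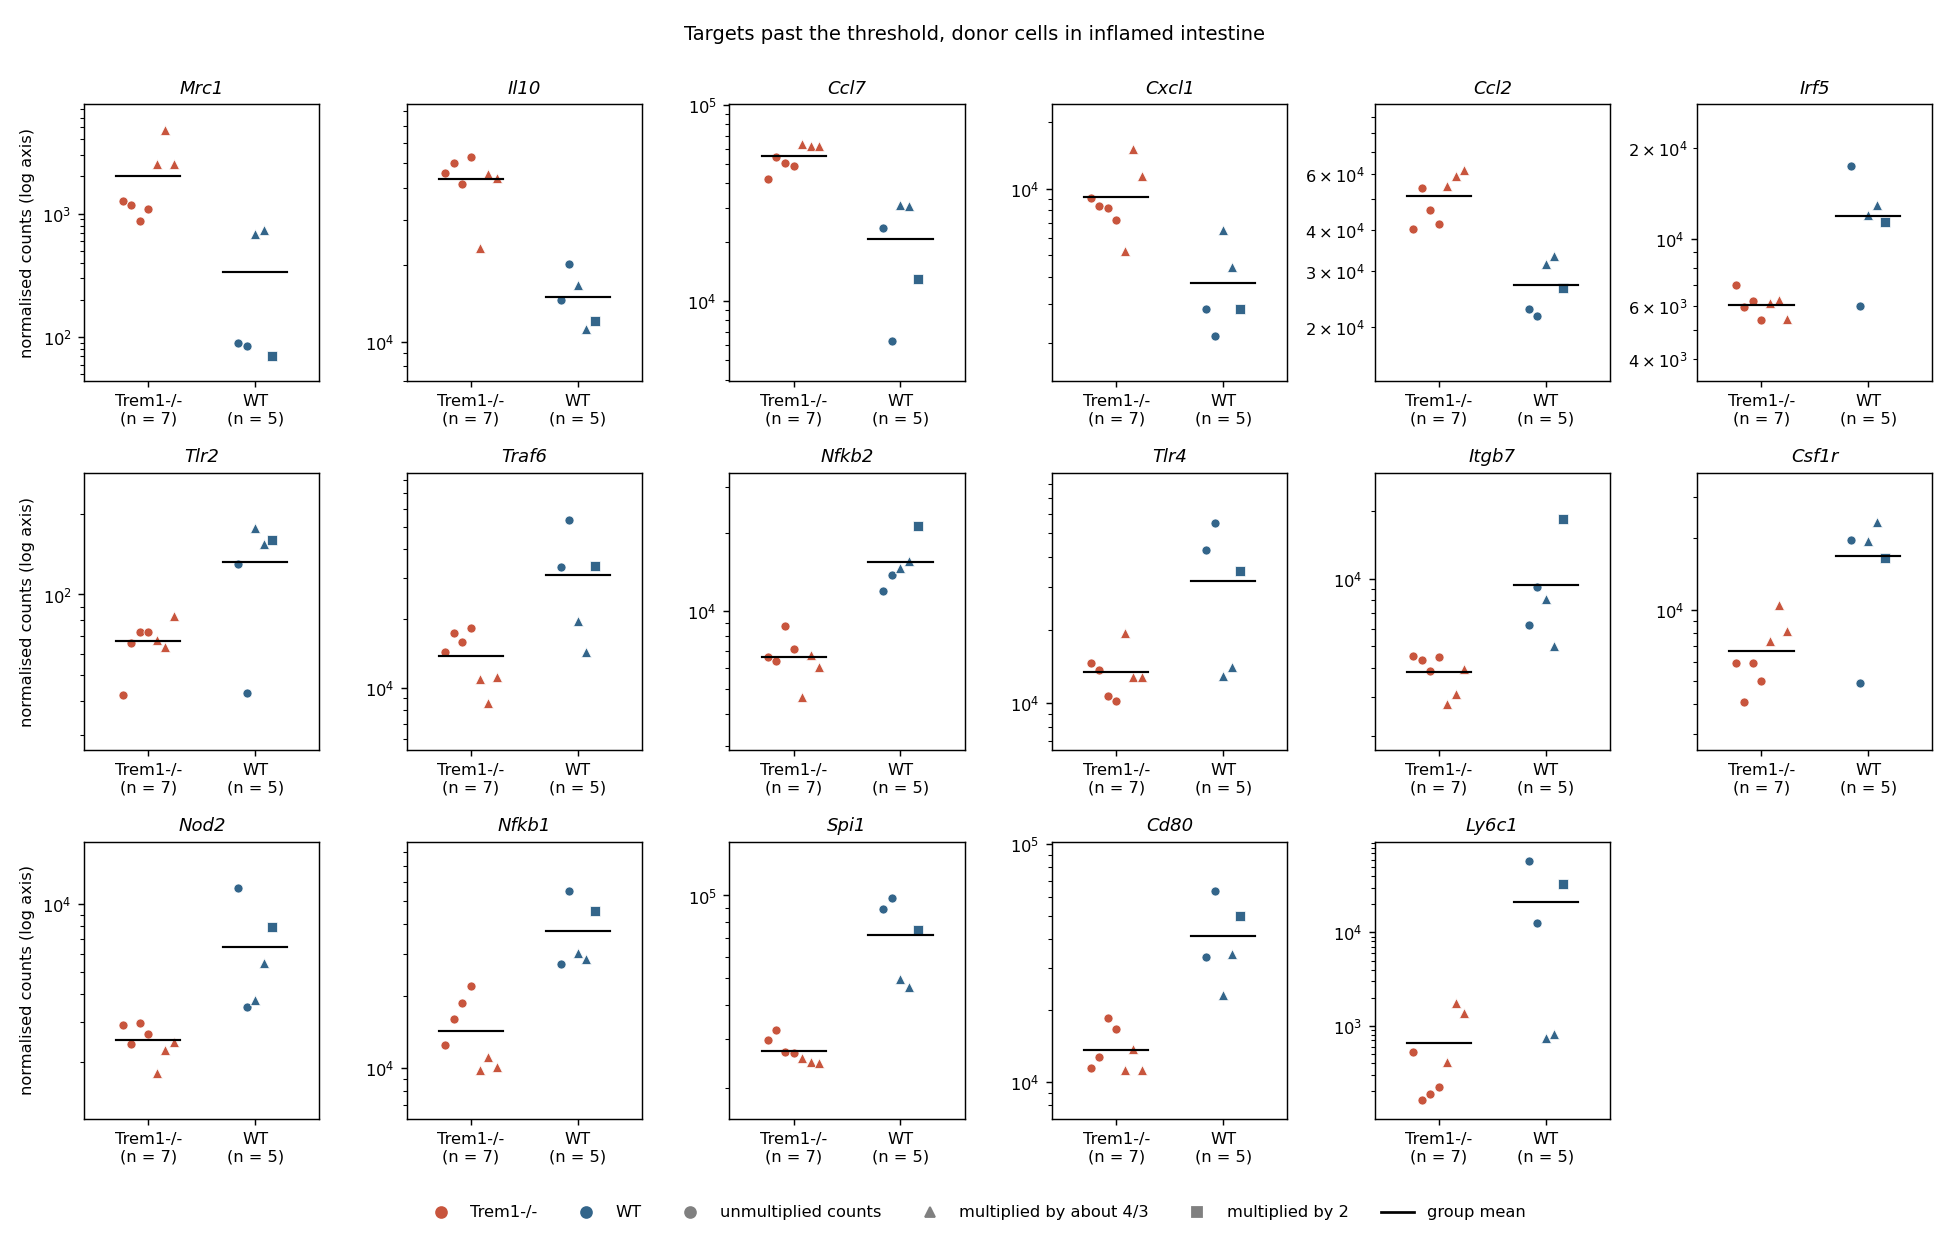
Normalised counts (vertical log axes) of 17 targets past the threshold, Trem1-/- samples (n = 7) left and WT samples (n = 5) right in each panel, with lines at group means and symbols for the multiplier of the deposited counts. Il10, Mrc1, Ccl2 and Ccl7 lie wholly above the WT samples in Trem1-/- cells, and Spi1, Cd80, Nfkb1, Nfkb2, Nod2 and Itgb7 wholly below them.

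Of both costimulatory ligands for T cells, Cd80 was lower in Trem1-/- cells and Cd86 gave a difference of 0.02 on the log2 scale (SE 0.39, adjusted p = 0.978). The Cd80 probe covers positions 211 to 310 of NM_009855.2 (chromosome 16). Trem1-/- samples had a lowest of 11214, a median of 12793 and a highest of 18597 normalised counts, and WT mice 1 to 5 had 33539.9, 63638, 23186, 34432 and 49642. All 7 Trem1-/- samples lay below all 5 WT samples, at 0.34 times the WT level (log2 fold change -1.58, SE 0.26, adjusted p = 0.000101). Cd80 passed in all 44 alternative settings run, with log2 fold changes of -2.34 to -1.22. These 44 comprised other scalings, tests, filters, blocks, subsets of samples and omissions of single mice. The deposited counts, other background filters and omissions of single control mice hardly moved the inflamed log2 fold changes. Passing in those settings adds little. Cd86 ranged from 11378 to 17981 normalised counts in Trem1-/- samples and from 6040.1 to 22527 in WT samples.

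Of 6 measured receptors that sense microbial products, 3 were lower (23.6% over all 55 targets), none (0) higher and 3 not past, with a median of -0.87. DESeq2 and limma each called 2 of the 6 lower, Tlr4 and Nod2. Nod2, the cytosolic sensor of muramyl dipeptide, had a lowest of 1788, a median of 2447 and a highest of 2968 normalised counts in Trem1-/- samples, and 11824, 3502, 3782, 5469.6 and 7932 in WT mice 1 to 5. Its groups did not overlap (log2 fold change -1.38, SE 0.33, adjusted p = 0.00277), and it passed in all 44 alternatives. Tlr4, the receptor of lipopolysaccharide, had a lowest of 10260.5, a median of 12850.1 and a highest of 19438 normalised counts in Trem1-/- samples, and 42775, 55254, 12929.8, 14167 and 34870.2 in WT mice 1 to 5. WT mice 1, 2 and 5 lay above every Trem1-/- sample, while WT mice 3 and 4 lay among them (log2 fold change -1.25, SE 0.30, adjusted p = 0.00277). Tlr2, a receptor of bacterial lipopeptides, was low throughout, at 42.0 to 82.8 normalised counts in Trem1-/- samples and 43.0 to 177 in WT samples. Its call (log2 fold change -0.99, SE 0.37, adjusted p = 0.041) held in the fewest alternatives of the 18 (22 of 44) and ended without WT mouse 1, 3, 4 or 5 or any of Trem1-/- mice 1 to 6, at -1.01 to -0.86. Cd14, the co-receptor of lipopolysaccharide, gave -0.44 (SE 0.21, adjusted p = 0.111), although 6 of 7 Trem1-/- samples lay below every WT sample and its exact permutation adjusted p was 0.0214. Tlr8 gave -0.76 (adjusted p = 0.147) and Tlr1 0.00 (SE 0.56, adjusted p = 0.997).

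Downstream of these receptors, 3 of 5 measured genes of signalling to NF-kappaB were lower (23.6% over all 55 targets) and 2 did not pass. Their median was -1.17. Nfkb1 encodes the p105 precursor of the p50 subunit (probe at positions 2126 to 2225 of NM_008689.2, chromosome 3). Trem1-/- samples had a lowest of 9743, a median of 12497 and a highest of 22059 normalised counts, and WT mice 1 to 5 had 27115, 55129, 30302, 28497 and 45446. The highest Trem1-/- sample lay below the lowest WT sample (log2 fold change -1.39, SE 0.25, adjusted p = 0.000227). Nfkb2, which encodes the p100 precursor of p52, had a lowest of 4631, a median of 6652 and a highest of 8729 normalised counts in Trem1-/- samples, and 11939.6, 13742, 14565, 15617 and 21201 in WT mice 1 to 5. It too showed no overlap (log2 fold change -1.22, SE 0.25, adjusted p = 0.000979). Traf6, the ubiquitin ligase that links Toll-like receptors to NF-kappaB, had a lowest of 8572, a median of 14260.1 and a highest of 18125 normalised counts in Trem1-/- samples, and 33627, 53444, 19557, 14252 and 33729.9 in WT mice 1 to 5. WT mouse 4 alone lay within the Trem1-/- range of Traf6 (log2 fold change -1.17, SE 0.29, adjusted p = 0.00277), and the call ended with TMM scaling (-0.91, adjusted p = 0.0718) and with DESeq2's size factors (-0.84, adjusted p = 0.123). Relb, a partner of p52, gave -0.51 (adjusted p = 0.335) and Card9, an adaptor of NOD2 and lectin receptors, -0.22 (adjusted p = 0.425).

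Cxcl1 and Nfkb2 moved in opposite directions, and both hold the NF-kappaB kappaB motif just upstream of the start of transcription. Of the 55 targets, 35 had a RefSeq promoter (250 bases before to 50 after the start, build GRCm38.p6), and 7 of these 35 held the motif on either strand (20%), against 9.55% of 27025 genes in the table. The 7 were Cxcl1 (higher), Nfkb2 and Tlr2 (lower), and Cxcl10, Il6, Tgfb1 and Vegfa (not past). The 150 bases before the start are shown for the target with the smallest adjusted p in each direction among them, both on the plus strand, with the motif in capitals. The stretch of Cxcl1 lies at chr5:90891095-90891244 and its motif begins 71 bases before the start. The stretch of Nfkb2, before the first of 3 starts, lies at chr19:46304587-46304736 and its motifs begin 39 and 11 bases before the start.
Cxcl1: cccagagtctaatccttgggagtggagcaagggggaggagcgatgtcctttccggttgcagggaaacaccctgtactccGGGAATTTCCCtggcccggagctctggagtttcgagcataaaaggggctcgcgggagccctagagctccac
Nfkb2: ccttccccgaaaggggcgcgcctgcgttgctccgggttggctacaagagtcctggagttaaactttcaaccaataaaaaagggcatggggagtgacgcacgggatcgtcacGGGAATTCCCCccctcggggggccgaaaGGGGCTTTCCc
A match in these letters is a description, and binding was not measured here.

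Of 4 measured myeloid transcription factors, Spi1 and Irf5 were lower (23.6% over all 55 targets) and 2 did not pass, with a median of -0.80. Spi1 encodes PU.1, the factor that sets up the myeloid programme (probe at positions 172 to 271 of NM_011355.1, chromosome 2). Trem1-/- samples had a lowest of 24681, a median of 26796 and a highest of 32547 normalised counts, and WT mice 1 to 5 had 88992, 97756, 49671, 46689.7 and 75217. The Trem1-/- values lay close together and below every WT value, and the difference had the smallest adjusted p of all targets (log2 fold change -1.39, SE 0.20, adjusted p = 3.17e-05). It passed in all 44 alternatives, with log2 fold changes of -2.15 to -0.94. Irf5, a transcription factor of inflammatory macrophages, had a lowest of 5386, a median of 6117 and a highest of 7010.4 normalised counts in Trem1-/- samples, and 17363, 5961, 12004, 12956 and 11307 in WT mice 1 to 5. WT mouse 2 lay within the Trem1-/- range and the other 4 WT mice above it (log2 fold change -0.98, SE 0.29, adjusted p = 0.00989). The call of Irf5 ended without WT mouse 1, at -0.80 (adjusted p = 0.0518). Cebpb, a factor induced in activated monocytes, gave -0.25 (adjusted p = 0.617).

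Among surface genes of homing and adhesion, Itgb7 was lower, and Ccr2, Cx3cr1, Ccr7 and Ccr9 did not pass. Itgb7, the beta chain of the gut-homing integrin, had a lowest of 2774, a median of 3970.5 and a highest of 4537 normalised counts in Trem1-/- samples, and 6235, 9174, 8140.0, 5002 and 18318 in WT mice 1 to 5. No values overlapped (log2 fold change -1.28, SE 0.29, adjusted p = 0.00176), and without WT mouse 5, the highest, the log2 fold change was -0.88 and still past the threshold. Ccr2, the chemokine receptor of inflammatory monocytes, gave 0.68 (adjusted p = 0.294), and DESeq2, with its own size factors, called it higher. Cx3cr1, the fractalkine receptor, gave -0.65 (adjusted p = 0.425), Ccr7, which guides cells to lymph nodes, -0.96 (adjusted p = 0.115), and Ccr9, a gut-homing receptor, -0.28 (adjusted p = 0.653).

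Ly6c1 had the largest difference of all targets and the widest spread among those that passed. Its protein belongs to the Ly6C antigens that mark inflammatory monocytes in mice. The probe covers positions 237 to 336 of NM_010741.2 (chromosome 15), and whether it also reads the close paralog Ly6c2 was not tested. Trem1-/- samples had a lowest of 162, a median of 407 and a highest of 1748 normalised counts, and WT mice 1 to 5 had 57870.0, 12736, 737, 828 and 33181. WT mice 1, 2 and 5 lay above every Trem1-/- sample, and WT mice 3 and 4 lay within the Trem1-/- range (log2 fold change -5.0, SE 1.06, adjusted p = 0.00108). Without WT mouse 1, the highest, the log2 fold change was -4.17. Within the class multiplied by about 4/3 it was 0.59 (adjusted p = 0.595), against -7.01 (adjusted p = 0.000768) among unmultiplied samples.

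Of 6 genes of macrophage maturation, Csf1r was lower (23.6% over all 55 targets) and 5 did not pass, with a median of -0.03. Csf1r, which encodes the receptor for M-CSF, had a lowest of 4079.5, a median of 5970.5 and a highest of 10506 normalised counts in Trem1-/- samples, and 19802, 4916, 19487, 23589.9 and 16482 in WT mice 1 to 5. WT mouse 2 lay within the Trem1-/- range and the other 4 WT mice above it (log2 fold change -1.33, SE 0.35, adjusted p = 0.00493). Adgre1, which encodes F4/80, gave 0.13 (adjusted p = 0.891), Fcgr1, the high-affinity receptor of immunoglobulin G, 0.22 (adjusted p = 0.558), and Trem2, a relative of Trem1 on macrophages, 0.63 (adjusted p = 0.401). DESeq2, with its own size factors, called Trem2 higher.

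Genes of antigen presentation and dendritic cells did not pass in edgeR, 0 of 5, against 32.7% of all 55 targets. Nor did they pass in DESeq2 or limma, and 1 of 5 (Irf4) had an unadjusted edgeR p below 0.05. H2-Ab1, which encodes an MHC class II beta chain, had a lowest of 8261, a median of 26394 and a highest of 34925 normalised counts in Trem1-/- samples, and 2146, 653, 37437, 65228 and 31202 in WT mice 1 to 5. WT mice 1 and 2 lay below every Trem1-/- sample, WT mouse 5 within their range and WT mice 3 and 4 above it (log2 fold change -0.20, SE 0.64, adjusted p = 0.823). Itgax (CD11c) gave -0.26 (adjusted p = 0.752) and Ccl22, a chemokine of dendritic cells, -0.79 (adjusted p = 0.147). Of 5 genes of the interferon response, Irf5 was lower (23.6% over all 55 targets) and 4 did not pass, with a median of -0.07. DESeq2, with its own size factors, called Cxcl9 and Cxcl10 higher. Cxcl10 gave 1.27 (SE 0.60, adjusted p = 0.111), with 8846 to 92524 normalised counts in Trem1-/- samples and 12424 to 39588 in WT samples. Cxcl9 gave 1.69 (SE 0.98, adjusted p = 0.193), which became 0.26 without Trem1-/- mouse 7, and Cxcl11 -0.07 (adjusted p = 0.966), which became 0.96 without WT mouse 1. Repair factors gave -0.15 for Tgfb1 (adjusted p = 0.425) and -0.75 for Vegfa (adjusted p = 0.405), with 0 of 2 past in edgeR, DESeq2 and limma and 0 at unadjusted p below 0.05. Cd44, the hyaluronan receptor, gave -1.26 (SE 0.56, adjusted p = 0.0912), with 6 of 7 Trem1-/- samples below every WT sample and an exact permutation adjusted p of 0.0397, and Cd68, a lysosomal macrophage marker, gave 0.18 (adjusted p = 0.823).

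WT samples varied more than Trem1-/- samples, and spread between mice and spread between assays cannot be told apart here. The positive-control means ran from 247 to 555 in WT samples and from 766 to 1034 in Trem1-/- samples, and the multiplier of 2 occurred in WT samples alone. The SD of log2 levels was larger among WT samples in 44 of 55 targets, larger among Trem1-/- samples in 9 and equal as rounded in 2. Its median was 0.44 in Trem1-/- samples and 0.74 in WT samples, and it reached 1 or more in 4 targets among Trem1-/- samples and 17 among WT samples. The edgeR fit shares a single spread per target over all groups, so its p-values take no account of this inequality. For Ly6c1 the adjusted p was 0.00108 in edgeR and 0.0625 in the exact permutation test. Siglec1, a sialic acid receptor of macrophages, varied most, with a lowest of 3110.2, a median of 4345 and a highest of 5418 normalised counts in Trem1-/- samples, and 72.1, 103, 3519, 8184 and 63.5 in WT mice 1 to 5. WT mouse 3 lay within the Trem1-/- range and WT mouse 4 above it, and the other 3 WT mice lay far below (log2 fold change 0.88, SE 0.93, adjusted p = 0.466). Before scaling, WT mice 1, 2 and 5 had 70, 74 and 67 counts, against background limits of 38.6, 16.8 and 40.1. By limma's test Siglec1 was called higher. Vegfa, the vascular growth factor, ranged from 1149.8 to 4540.4 normalised counts in Trem1-/- samples and from 238 to 8914 in WT samples. In 28 targets WT mice 3 and 4 did not overlap WT mice 1 and 2, and in 19 targets Trem1-/- mice 5 to 7 did not overlap Trem1-/- mice 1 to 4. Groups of 2 against 2 samples part by chance far more often than groups of 3 against 4. The counts of both genotypes therefore cannot be compared directly, and neither was tested against chance. An example is Ccr2, at 17227 to 30988 normalised counts in Trem1-/- mice 1 to 4 and 54532 to 63480 in mice 5 to 7. Mrc1 had 874 to 1270 in Trem1-/- mice 1 to 4 and 2514 to 4788 in mice 5 to 7.

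**Figure D3:**
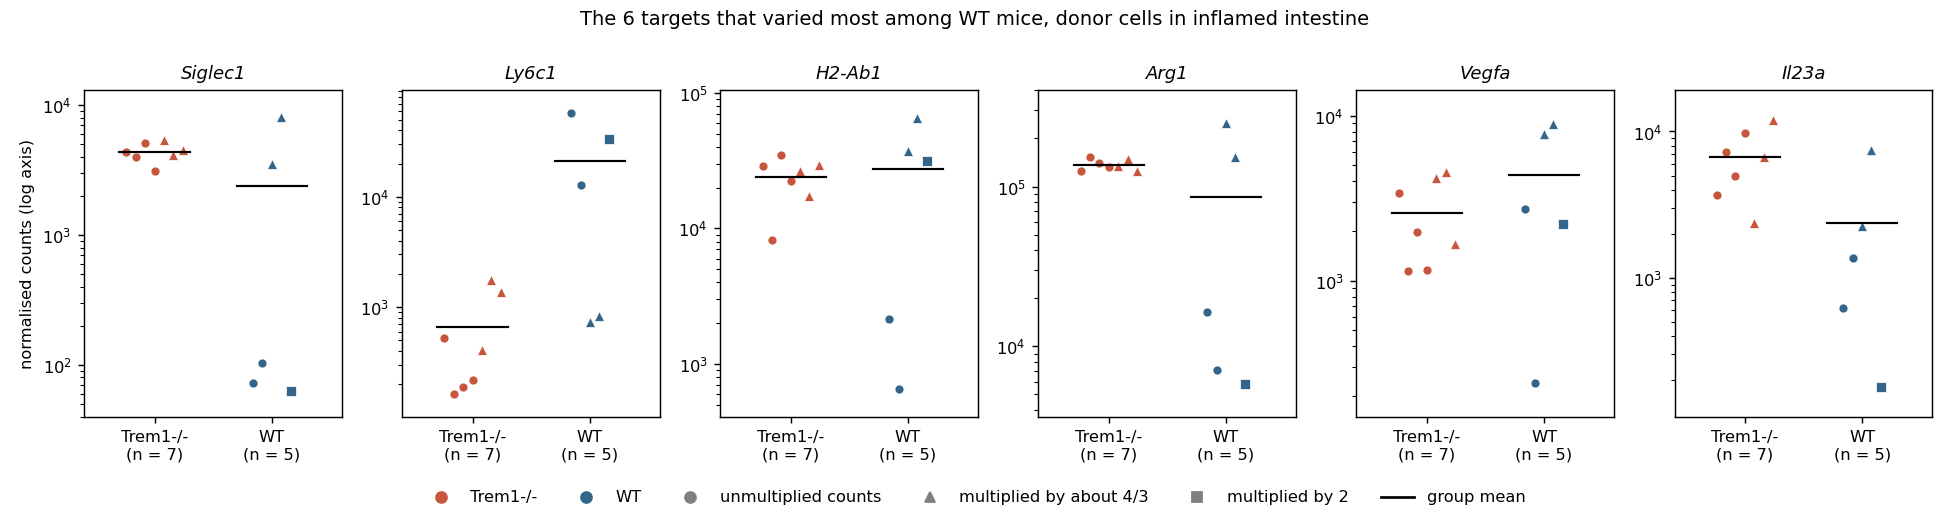
Normalised counts (vertical log axes) of the 6 targets with the largest SD of log2 levels among WT samples, Trem1-/- samples left and WT samples right, with lines at group means and symbols for the multiplier class. In Siglec1 and Arg1 the 7 Trem1-/- samples lie close together while WT mice 3 and 4 lie far above WT mice 1, 2 and 5; in Ly6c1 the same 2 WT mice lie far below the other 3.

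Without WT mice 3 and 4, a setting chosen after seeing the data, 25 targets passed, 11 higher and 14 lower, and 17 of the 18 calls were kept, all but Tlr2 (-0.73, adjusted p = 0.179). The 8 targets that passed in addition were Siglec1 (5.79), Arg1 (3.81), Il23a (3.21), Ccr2 (1.77), Itgax (1.66) and Trem2 (1.64), higher, and Ccl22 (-1.2) and Chil3 (-0.98), lower. Of the calls with wide WT spread, Mrc1 stood at 4.64, Ly6c1 at -5.71 and Tlr4 at -1.72 without these mice. The sign turned without them for Itgax (-0.26 over all samples), H2-Ab1 (1.07 without them, adjusted p = 0.223) and Vegfa (0.59, adjusted p = 0.538).

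The comparison was also made within each multiplier class. Among unmultiplied samples, Trem1-/- mice 1 to 4 against WT mice 1 and 2, 19 of 55 targets passed (34.5%). Among samples multiplied by about 4/3, Trem1-/- mice 5 to 7 against WT mice 3 and 4, 18 passed (32.7%). The genotypes were not multiplied alike in this class: the factor was applied to genes alone in the Trem1-/- samples, and to genes and control probes in the WT samples. The sign was the same in both classes for 37 of 55 targets (67.3%) and for 16 of the 18 called over all samples, and Ly6c1 and Tlr4 were the exceptions. Both classes are parts of the samples that gave the 18 calls, so agreement with these calls is no independent check. H2-Ab1 passed in both classes with opposite signs, at 4.07 (adjusted p = 0.000768) and -1.08 (adjusted p = 0.0158). Tlr4 gave -1.99 (adjusted p = 0.000768) in unmultiplied samples and 0.15 (adjusted p = 0.727) in the others. Past the threshold in both classes, with one sign, were 9 targets (16.4%), all among the 18: Il10, Mrc1 and Ccl2, higher, and Cd80, Nfkb1, Spi1, Nod2, Itgb7 and Traf6, lower. With the class as a block over all samples 15 of the 18 calls were kept, and those of Ccl7 (1.28) and Tlr2 (-0.75) were among the 3 that ended.

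**Figure D4:**
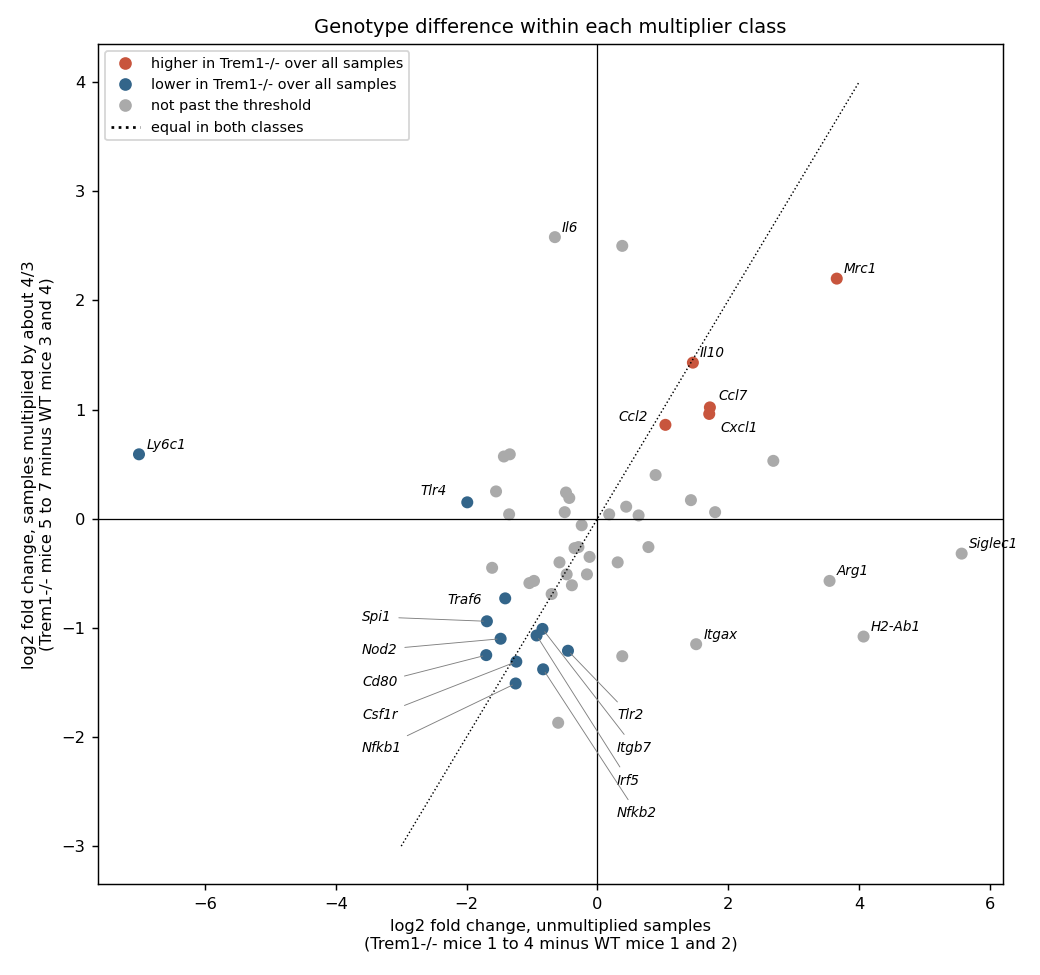
Log2 fold change (Trem1-/- minus WT) of 53 targets within unmultiplied samples (horizontal axis) and within samples multiplied by about 4/3 (vertical axis), coloured by the call over all samples. Il10, with 1.46 and 1.43, lies close to the dotted line of equality, whereas Ly6c1, with -7.01 and 0.59, and Siglec1, with 5.57 and -0.32, lie far from it.

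Beside the inflamed samples, the same genotypes were compared in control intestine, in other mice. There 2 of 55 targets passed (3.64%), both lower. They were Spi1, at -0.99 (SE 0.22, adjusted p = 0.00932), and Nfkb2, at -1.10 (SE 0.28, adjusted p = 0.0206). Spi1 averaged 44935 ± 11532 normalised counts in Trem1-/- control cells and 89324 ± 9219 in WT control cells (SD, n = 5 each). At unadjusted p below 0.05 there were 15. The call of Nfkb2 ended without WT control mouse 2 (-1.04) or 3 (-0.85) and without Trem1-/- control mouse 2 (-0.99), 3 (-1.08) or 4 (-1.08), and neither call held with DESeq2's size factors (-0.47 for Spi1, -0.63 for Nfkb2). The 13 targets that were lower in the inflamed intestine had log2 fold changes below 0 in control intestine as well, where 40 of all 55 were below 0. Of the 5 that were higher, Mrc1 (1.19, adjusted p = 0.305) and Ccl2 (0.03, adjusted p = 0.919) were above 0 in control intestine, and Ccl7, Cxcl1 and Il10 below it.

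The difference between both genotype effects was tested as an interaction, and 2 of 55 targets passed (3.64%), 1 with a positive and 1 with a negative value (1.82% each). Il10 had 2355 to 3953 normalised counts in Trem1-/- control cells and 1493 to 5051 in WT control cells, and an interaction of 1.74 (SE 0.39, adjusted p = 0.013). Cd80 had 10237 to 15720 normalised counts in Trem1-/- control cells and 7613 to 20611 in WT control cells, and an interaction of -1.48 (SE 0.38, adjusted p = 0.0213). Both control ranges overlapped, whereas the inflamed ranges did not. The interaction of Il10 passed in 38 of 43 alternatives and that of Cd80 in 32. The Cd80 interaction ended without WT inflamed mouse 2 (-1.26) or 5 (-1.40), WT control mouse 2 (-1.39) or Trem1-/- control mouse 2 (-1.35). It also ended with TMM scaling (-1.47), DESeq2's size factors (-1.67), positive-control scaling (-1.24), the mouse number as block (-1.42) and in the authors' table (-1.16). In multiplied samples alone it was -1.22, and in those multiplied by about 4/3 -0.91, both not past. The Il10 interaction ended with DESeq2's size factors (1.58) and in the authors' table (1.95). Nor did it pass in unmultiplied (1.41), multiplied (2.01) or about 4/3 samples (1.94) alone. Cxcl1, at 186 to 236 normalised counts in Trem1-/- control cells and 158 to 414 in WT control cells, had an interaction of 1.57 (SE 0.48, adjusted p = 0.0704). The interactions of the 2 control calls, -0.40 for Spi1 (SE 0.29, adjusted p = 0.505) and -0.12 for Nfkb2 (SE 0.38, adjusted p = 0.896), did not pass.

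**Figure D5:**
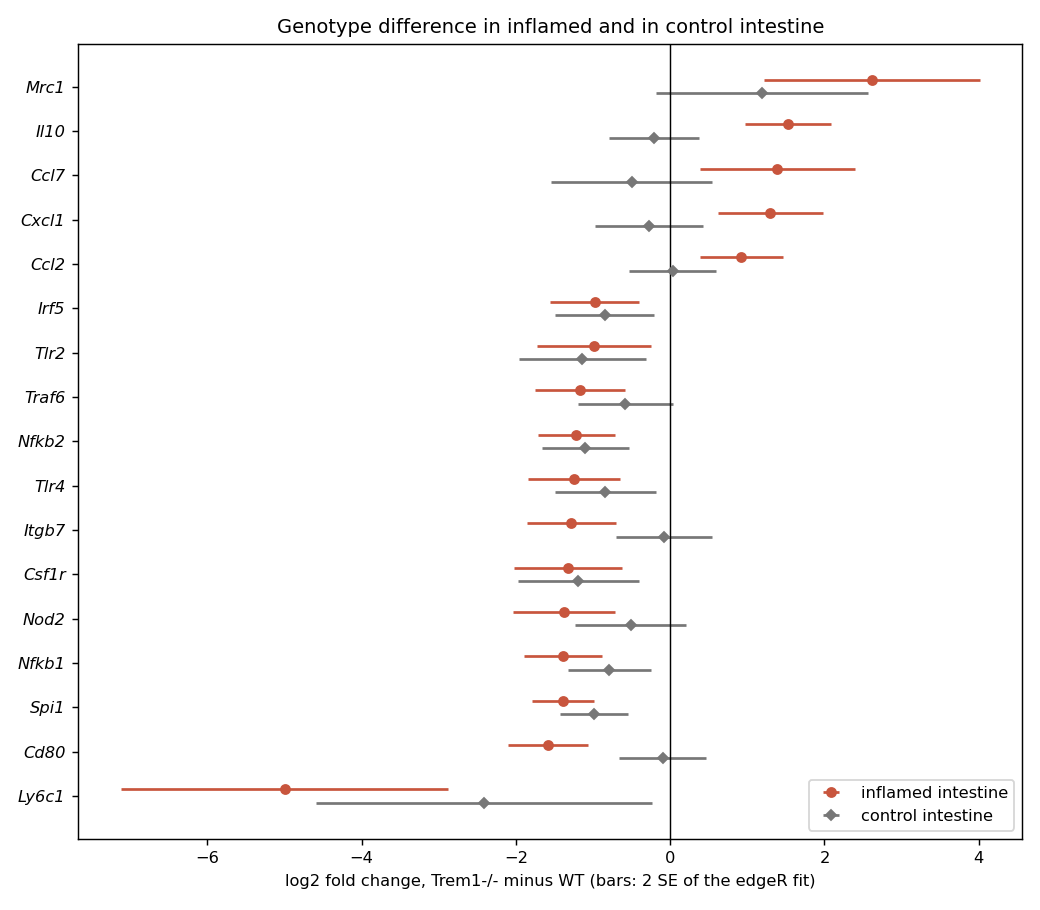
Log2 fold change (horizontal axis, Trem1-/- minus WT) of 17 targets past the threshold in inflamed intestine (circles) and of the same targets in control intestine (diamonds), with bars of 2 SE from the edgeR fit. For Spi1 and Nfkb2 both symbols lie left of 0, with -1.39 and -0.99 for Spi1, whereas for Il10 and Cd80 the control symbol lies near 0, at -0.21 and -0.10.

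In bone marrow monocytes 0 of 54 targets passed in edgeR (0.0%), where 3 had an unadjusted p below 0.05, limma called 0 and DESeq2 called 2. The 13 targets that were lower in the inflamed intestine were all below 0 there too, as were 40 of 54 tested, with Spi1 at -0.82 (SE 0.39, adjusted p = 0.843). Il10 gave -0.17 (SE 0.72, adjusted p = 0.951), Cd80 -0.87 (SE 0.63, adjusted p = 0.843) and Cxcl1 -0.05 (SE 0.56, adjusted p = 0.966).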

How the data were processed

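The deposited tables hold nCounter counts of the panel's probes. Per the labels' protocols and the series' design text, RNA of 100 sorted cells was turned into cDNA and pre-amplified with target primers before counting, which can change the proportions of transcripts. The raw counts of some samples are whole-number counts as deposited. In other samples the deposited values are such counts times about 4/3 or 2, which makes them estimated counts here, divided by the multiplier and rounded. The authors' normalised table, named a score here because its steps are not given in the sources used here, served as an alternative.

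Counts were tested with edgeR 4.0.16 (R 4.3.3) by quasi-likelihood F tests, with library sizes from Actb, Gapdh and Rpl19. The fit used 4 group means over 22 intestinal samples, and marrow was fitted apart. Targets needed 3 samples above background. DESeq2 1.42.0 and limma 3.58.1 were alternatives. DESeq2's test used its own size factors, so it differs from the main fit in scaling as well as in the test. Limma on log2 counts kept the housekeeping scaling. Code was tested on simulated data with less spread than these data, equal in all groups. Error rates in these data were not tested.

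The targets and gene lists were chosen with earlier results of these data known. Named were all targets past the threshold, the 10 largest other differences, targets past the interaction test and members of the lists. Probes blank in 1 or both genotypes were not compared. Of the tested targets, 2 are counted in the totals but not reported here.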

Additional observations from a re-analysis of the deposited data

Results flagged for a closer look

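Single samples stood apart from the rest of their group in 7 of 110 groups examined (55 targets in each genotype of inflamed intestine), by Dixon's test at the 95% level, which marks about 1 in 20 groups by chance. Among Trem1-/- samples these were Cxcl9 in mouse 7 (1552.1 normalised counts, high), Il10 in mouse 5 (23278.1, low) and Tlr2 in mouse 1 (42.0, low). Among WT samples they were Ccr9 in mouse 1 (324.3, high), Cd14 in mouse 2 (167302.1, high), Csf1r in mouse 2 (4915.8, low) and Tlr2 in mouse 2 (43.0, low).

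The genotype difference in inflamed intestine differed from that in control intestine, by edgeR's interaction test, for Il10 (1.74 on the log2 scale, adjusted p = 0.013) and for Cd80 (-1.48, adjusted p = 0.0213).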

How the results depend on the processing

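In inflamed intestine, 18 targets passed, and 14 to 19 with 1 sample left out. Scaling by positive controls gave 29, with 0 higher and 29 lower. The split of higher and lower calls was 8 and 9 with DESeq2's size factors, 10 and 10 with DESeq2's test, 8 and 12 with limma, 2 and 11 in the authors' table, and 11 and 14 without WT mice 3 and 4, against 5 and 13. The median over all targets moved by 0.26 with TMM, 0.37 with DESeq2's size factors, 0.42 with its test and 0.14 with total counts. In control intestine, with 2 calls, there were 6 with TMM scaling, 0 with DESeq2's size factors or total counts, 29 with positive controls, 4 without Rpl19, 12 in the authors' table, 6 with the multiplier class as a block, 11 in unmultiplied samples, 13 in samples multiplied by about 4/3, 5 without WT mice 3 and 4, and 1 to 6 with 1 sample left out. For the interaction, with 2 calls, there were 0 with DESeq2's size factors, in the authors' table, in multiplied samples and in those multiplied by about 4/3, 1 with positive controls, 7 with DESeq2's test, 4 with the multiplier block, 16 in unmultiplied samples, 11 without WT mice 3 and 4, and 1 to 4 with 1 sample left out. In marrow, with 0 calls, there were 2 with positive controls, 1 without Rpl19, 2 with DESeq2's test, 1 over all 28 samples, and 0 to 2 with 1 sample left out. Of the 18 calls, Ly6c1 and Tlr4 turned sign in some alternative, as did 26 of the other targets. Turned values that passed the threshold, or belonged to a call, were those of H2-Ab1 in unmultiplied samples (4.07), Itgax without WT mice 3 and 4 (1.66), and Ly6c1 (0.59) and Tlr4 (0.15) in samples multiplied by about 4/3. The causes were not tested. Of the omissions, WT control mouse 5 and Trem1-/- control mouse 5 gave 6 control calls, WT inflamed mouse 2 gave 4, and WT control mouse 2 or 3 and Trem1-/- control mouse 2, 3 or 4 gave 1. The interaction had 4 calls without Trem1-/- inflamed mouse 5, and 1 without WT inflamed mouse 2 or 5, WT control mouse 2 or Trem1-/- control mouse 2. Marrow had 2 calls without WT mouse 1, and 1 without WT mouse 3 or Trem1-/- mouse 1. With the mouse number as a replicate block, calls numbered 17 in inflamed intestine, 1 in control intestine and 1 for the interaction, and the deviations of same-numbered samples had correlations of -0.15 to 0.56, so the numbers are not taken as a pairing. The 4/3 class alone, the omission of WT mice 3 and 4 and the omission of single control mice were chosen after seeing the data.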

Other observations

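Il10 and Cd80 moved in opposite directions, and their ratio within a sample needs no scaling. Il10 stood at 2.07 to 3.98 times Cd80 in Trem1-/- inflamed samples (median 3.30) and at 0.243 to 0.722 times in WT inflamed samples (median 0.325), without overlap. In control intestine it stood at 0.173 to 0.352 times Cd80 in Trem1-/- samples and at 0.109 to 0.663 times in WT samples. The pair was chosen after its values were seen, so no test is given.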
